A study of Saccharomyces cerevisiae SK1 with 8 samples.

Results

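The comparison concerns growing diploid budding yeast that lack the PUS1 gene, set against cells that have it, with an inducible Pus1 construct left switched off in both. Its members are 4 of the 8 sequenced libraries, chosen by their labels: the pus1 deletion treated with DMSO (2 libraries) and wild type treated with DMSO (2 libraries). All strains were MATa/alpha diploids of the SK1 background, a laboratory strain that sporulates efficiently. Both genotypes carried his3::pTetO7.1-altPus1-3V5::HIS3, a truncated and 3V5-tagged Pus1 under a tet operator promoter, and ura3::pRNR2-TetR-Tup1 together with pTetO7.1-TetR::URA3, which encodes the TetR-Tup1 repressor and TetR. The deletion strain had, in addition, pus1::KanMX in place of the native gene. Cells grew in YEPD, a rich glucose medium, at 30 °C and were taken 3 h after dilution. DMSO was the solvent of the inducer anhydrotetracycline (aTC), and the remaining libraries are the same 2 strains with aTC (2 libraries each). The labels give 1 strain number per genotype, so the deletion and any other difference between the 2 strains cannot be told apart.

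Pus1 is a pseudouridine synthase: it converts uridine to pseudouridine at several positions of nuclear and cytoplasmic tRNAs, in U2 snRNA and in some mRNAs. Yeast has further stand-alone synthases with their own sites, encoded by PUS2, PUS4, PUS5, PUS6, PUS7, PUS9, DEG1 and RIB2. Cells without PUS1 are viable. Pseudouridine is not seen by RNA counting, so the values below are mRNA levels of the genes, not modification.

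Total counts over 6663 listed genes were 51331492 and 60057357 in the deletion and 51714455 and 57702051 in wild type. A count of 0 leaves room for up to 3 reads, or 0.04995 to 0.0584 CPM (CPM being read counts made comparable between libraries; the limit covers counting error only) in these libraries. Replicates correlated across genes at 0.999 in the deletion and 0.998 in wild type. Levels below are CPM after TMM scaling, which corrects for differences in library composition. Per gene, CPM is not corrected for length, so levels are compared between libraries and not between genes. In bulk RNA a smaller share of cells of a type and less RNA per cell cannot be told apart. Replicates are labelled as biological, and whether they came from separate isolates is not given.

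PUS1 itself (YPL212C; the files place it on chromosome 16 from 149155 to 150789, on the minus strand) followed the labels. The deletion libraries had 2 and 4 reads, or 0.0382 and 0.0654 CPM, against 11004 and 12139 reads, or 221 and 216 CPM, in the wild-type libraries. The deletion was therefore near the limit of a count of 0 rather than at exactly 0 reads. Taken over both libraries, wild type had 4127 times the PUS1 level of the deletion (95% exact interval 1896 to 11247, counting error only). The gene count joins native PUS1 and the construct, so the same numbers limit what the uninduced construct contributed in the deletion. With aTC the same gene reached 771 and 905 CPM in the deletion and 1124 and 1078 CPM in wild type.

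Beyond PUS1, few transcripts differed between the 2 strains past the test, and by small amounts. Of 5932 genes tested, 13 were called (0.219%) by the edgeR quasi-likelihood test at a Benjamini-Hochberg adjusted p under 0.05. Of these, 8 were higher in the deletion (0.135%) and 5 lower (0.0843%), PUS1 among the lower. Heat-shock chaperones, a mitochondrial aldehyde dehydrogenase and reductase, a polyamine transporter and a yapsin protease were higher. A serine and threonine deaminase, a zinc transporter, a glutathione peroxidase and a cell wall mannoprotein were lower. PUS1 apart, called log2 fold changes ran from 0.39 to 0.96 in size, and 6 exceeded 1.5-fold. The median size over all tested genes was 0.0865 (log2).

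The count depends on where the line is drawn and on which libraries set the spread. A set of 9 genes, HSP104 among them, lay just outside and shared an adjusted p of 0.0501, and 62 genes were under 0.1 (36 higher, 26 lower). At an unadjusted p under 0.05 there were 980 genes (16.5%). DESeq2 called 113 (2.14%), of which 49 were higher (0.929%) and 64 lower (1.21%). An edgeR fit of the 4 DMSO libraries alone called 261 (4.42%), of which 111 were higher (1.88%) and 150 lower (2.54%). Without deletion replicate 1 the count was 2, without deletion replicate 2 it was 1, and without wild-type replicate 1 it was 4, while all 13 genes kept their sign in each. Below, a gene is said to be called or not by the edgeR fit of all 8 libraries unless another tool is named. Of the 29 named genes that this fit tested and did not call, DESeq2 called 15 and the fit of the 4 DMSO libraries called 17.

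The most certain lower gene beside PUS1 was CHA1 (YCL064C), the catabolic deaminase that breaks down serine and threonine. It had 91.5 and 90.6 CPM in the deletion, against 166 and 161 CPM in wild type. The replicates nearly coincided and the groups did not overlap, which of all tested genes held for 29.4% with the deletion below and 28.6% with it above. CHA1 was thus 1.79-fold lower in the deletion (log2 -0.84, SE 0.0778, edgeR adjusted p = 9.78e-04). It was also called without deletion replicate 1 (adjusted p = 0.0417), and not without deletion replicate 2 (adjusted p = 0.0587).

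ZRT1 (YGL255W), the high-affinity zinc transporter of the plasma membrane, had 38.7 and 39.2 CPM in the deletion and 58.9 and 55.1 CPM in wild type. Both deletion libraries lay below both wild-type libraries, at a log2 of -0.55 (SE 0.0607, edgeR adjusted p = 0.00334). GPX2 (YBR244W), a glutathione peroxidase, had 68.3 and 65.3 CPM in the deletion and 101 and 100.4 CPM in wild type, again without overlap (log2 -0.59, SE 0.0661, adjusted p = 0.00334). HPF1 (YOL155C), a heavily glycosylated cell wall mannoprotein and the most abundant of the called genes in CPM, had 2606 and 2514 CPM in the deletion and 3879 and 3692 CPM in wild type. It fell without overlap of the groups (log2 -0.56, SE 0.0691, adjusted p = 0.00524). HPF1 is rich in repeats and has a relative in CSS1, so uniquely aligned reads leave its level uncertain. CSS1 itself had 240.1 and 228 CPM in the deletion and 282 and 291 CPM in wild type, and did not pass (adjusted p = 0.0501).

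Among the higher genes, YOR338W, which has no standard name, had the largest fold. It had 14.0 and 13.2 CPM in the deletion, against 7.19 and 6.74 CPM in wild type. The deletion libraries were both well above wild type, 1.95-fold on the fitted scale (log2 0.96, SE 0.112, edgeR adjusted p = 0.00389). YPS6 (YIR039C), a yapsin-type aspartic protease of the cell surface, had 14.3 and 14.2 CPM in the deletion and 8.54 and 9.30 CPM in wild type (log2 0.68, SE 0.111, adjusted p = 0.0384). TPO4 (YOR273C), a polyamine transporter of the plasma membrane, had 52.0 and 54.4 CPM in the deletion and 39.2 and 39.5 CPM in wild type (log2 0.44, SE 0.0706, adjusted p = 0.0384). In each of these the groups stood apart.

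The mitochondrial pair was ALD4 and MCR1. ALD4 (YOR374W), the main mitochondrial aldehyde dehydrogenase, had 68.2 and 63.9 CPM in the deletion and 48.5 and 51.9 CPM in wild type (log2 0.40, SE 0.0655, edgeR adjusted p = 0.0384). MCR1 (YKL150W), the mitochondrial NADH-cytochrome b5 reductase, had 220.2 and 207 CPM in the deletion and 158 and 169 CPM in wild type (log2 0.39, SE 0.0625, adjusted p = 0.0384). Neither gene's groups overlapped.

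**Figure D1:**
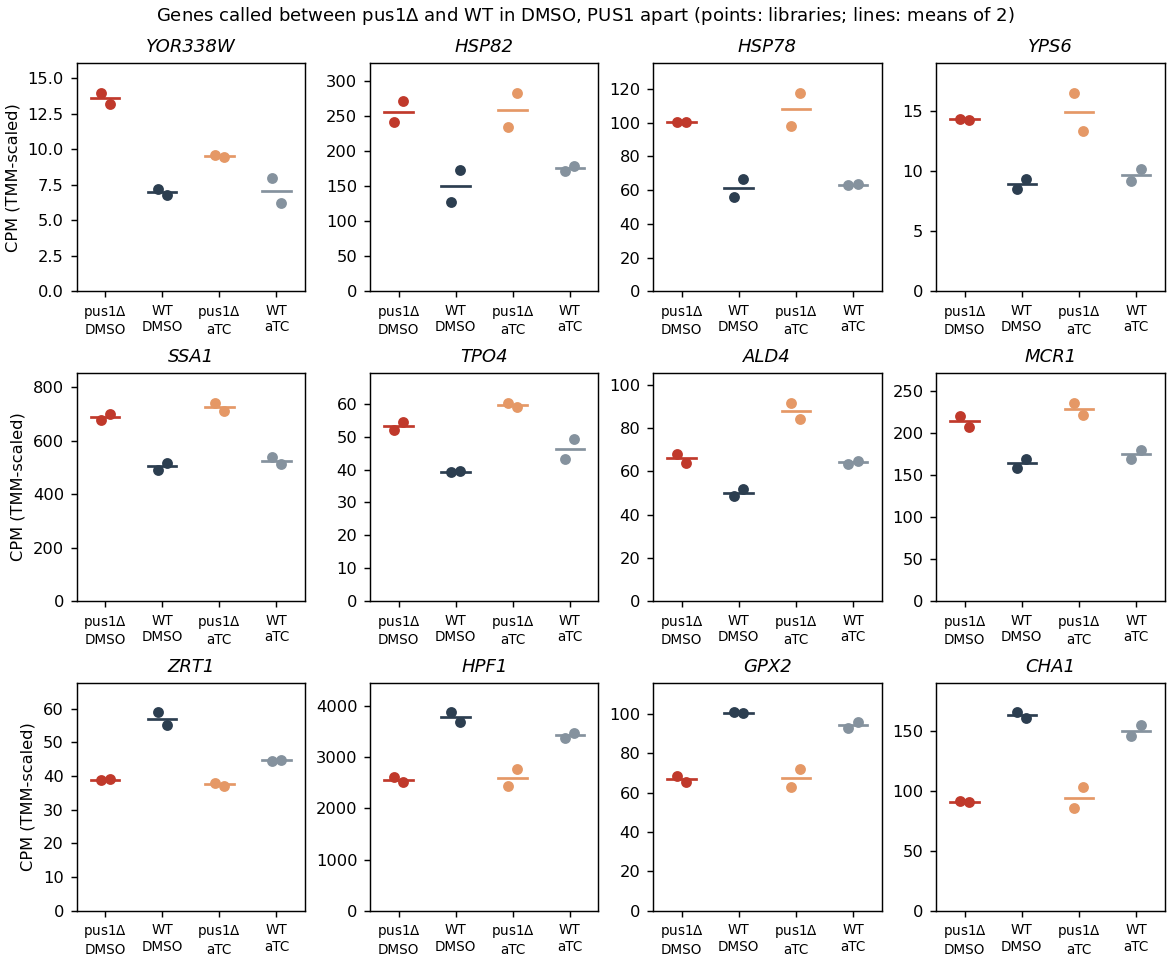
Level of each called gene other than PUS1 in every library, in TMM-scaled CPM on linear axes from 0, with points for libraries and short lines for the mean of 2. In DMSO the deletion and wild-type points do not overlap in any of the 12 panels, and the aTC libraries of the same strains stand to the right.

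The 3 called chaperones were HSP82, HSP78 and SSA1. Chaperone genes of this kind are controlled by Hsf1, the heat-shock transcription factor, which binds inverted repeats of nGAAn units in their promoters. HSP82 (YPL240C), the stress-inducible Hsp90, had 242 and 272 CPM in the deletion, against 127 and 173 CPM in wild type. As a ratio its wild-type libraries differed more than those of any other called gene, yet both stayed below the deletion (log2 0.77, SE 0.127, edgeR adjusted p = 0.0384). HSP78 (YDR258C), the disaggregase of the mitochondrial matrix, had 100.5 and 100.2 CPM in the deletion and 56.2 and 66.4 CPM in wild type (log2 0.71, SE 0.0914, adjusted p = 0.00636). SSA1 (YAL005C), a cytosolic Hsp70, had 675 and 698 CPM in the deletion and 491 and 517 CPM in wild type (log2 0.45, SE 0.0563, adjusted p = 0.00617). Both again stood apart.

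SSA1 overlaps another listed gene and is nearly identical to SSA2, and HSP82 is nearly identical to HSC82, so unique alignment leaves their levels uncertain. The near copies had small differences. SSA2 had a log2 of 0.14 (SE 0.0603) and HSC82 of 0.08, neither called.

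The promoters of the 3 called chaperones are shown because these genes were higher together in the deletion. Each line runs 5′ to 3′ from 250 bases before to 50 after the start codon's first base, from the RefSeq S288C assembly R64, and not from SK1. Capitals mark letters that match TTCNNGAA or GAANNTTC, each a pair of facing heat-shock units. The windows are on the minus strand of R64, at chrIV:974194-974493 for HSP78, chrXVI:98576-98875 for HSP82 and chrI:141382-141681 for SSA1.
HSP78: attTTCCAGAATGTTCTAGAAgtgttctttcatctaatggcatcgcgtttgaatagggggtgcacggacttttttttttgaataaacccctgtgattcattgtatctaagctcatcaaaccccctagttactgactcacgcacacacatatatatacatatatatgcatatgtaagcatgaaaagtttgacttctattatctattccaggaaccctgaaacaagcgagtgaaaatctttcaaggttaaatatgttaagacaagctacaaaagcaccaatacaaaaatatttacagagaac
HSP82: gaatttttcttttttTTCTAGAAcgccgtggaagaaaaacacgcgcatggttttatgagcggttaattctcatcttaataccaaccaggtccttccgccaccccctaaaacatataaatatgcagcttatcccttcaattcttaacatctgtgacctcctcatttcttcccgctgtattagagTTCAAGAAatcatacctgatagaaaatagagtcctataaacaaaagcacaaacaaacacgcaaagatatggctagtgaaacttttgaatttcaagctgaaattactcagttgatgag
SSA1: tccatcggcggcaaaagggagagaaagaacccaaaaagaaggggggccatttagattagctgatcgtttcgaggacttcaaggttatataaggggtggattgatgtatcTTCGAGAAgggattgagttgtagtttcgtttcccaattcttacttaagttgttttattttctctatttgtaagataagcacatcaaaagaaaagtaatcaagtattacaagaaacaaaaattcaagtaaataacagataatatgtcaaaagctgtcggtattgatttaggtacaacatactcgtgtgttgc
HSP78 holds 3 matches that overlap each other, beginning 247 to 237 bases before the start codon. HSP82 holds 2, at 235 and 67 bases, and SSA1 holds 1, at 141 bases. Either form occurred on at least 1 strand in 1292 of 5591 such windows (23.1%). It occurred in 5 of the 8 windows of genes higher in the deletion (HSP78, HSP82, SSA1, TPO4 and YOR338W) and in 1 of the 5 of lower genes, PUS1. Of the 29 chaperone genes listed as Hsf1 targets, 18 windows held it. The stress response element AGGGG, bound by Msn2 and Msn4, occurred on either strand in 22.0% of all windows, in 4 of the 8 windows of higher genes and in 10 of the 29 chaperone windows. These letter matches are descriptions, not measured binding, and the heat-shock forms were chosen after the expression values were seen.

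Around the called genes, the Hsf1 chaperone list as a whole lay on the higher side. Of 29 chaperone genes tested, 3 were called higher and 0 lower, and 25 had a log2 fold change above 0, with a median of 0.16. Across all tested genes the median was 0.0015 and 50.4% lay above 0. At an unadjusted p under 0.05, 17 of the 29 were higher and 0 lower, where 8.85% of all genes were higher and 7.67% lower. DESeq2 called 9 of them higher and the fit of the 4 DMSO libraries called 12, with 0 lower in both. HSP104, the cytosolic disaggregase, had 194 and 209 CPM in the deletion and 147 and 149.9 CPM in wild type, and missed the threshold in edgeR (log2 0.44, SE 0.0759, adjusted p = 0.0501) but not in DESeq2 (adjusted p = 3.41e-05). The Hsp40 co-chaperones SIS1, APJ1 and MDJ1 had log2 values of 0.37, 0.39 and 0.36, and CUR1 and BTN2, which sort misfolded proteins, 0.62 and 0.50. None of these 5 was called by the edgeR fit of all libraries, while DESeq2 called SIS1, APJ1 and MDJ1, and the fit of the 4 DMSO libraries called all 5. Members on the other side were CDC37, the kinase-specific Hsp90 co-chaperone (log2 -0.20), CPR7 (-0.11) and SBA1 (-0.09), together with SSA4 (-0.03). HSF1 itself was at 0.02. When genes were grouped by expression level into deciles, 25 of the 29 lay above the median of their own expression decile. Summed over the list, the deletion had 18379 and 18693 CPM and wild type 16490.1 and 17028 CPM.

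**Figure D2:**
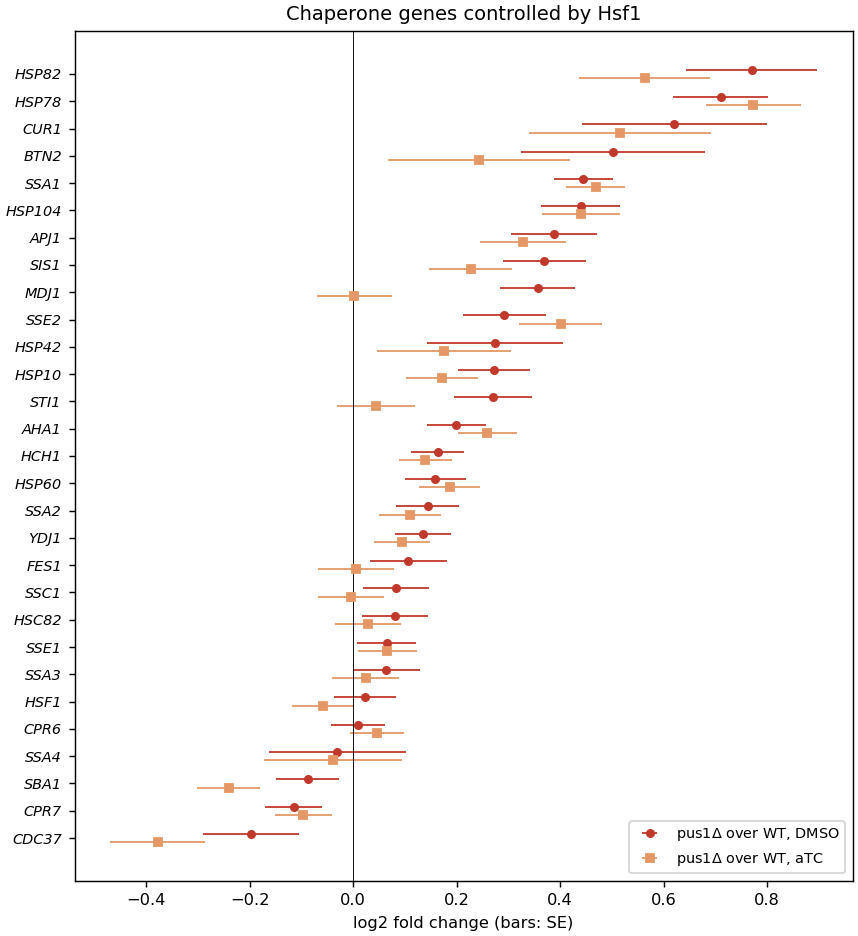
Fold change of each of the 29 Hsf1 chaperone genes, deletion over wild type, in DMSO (circles) and in aTC (squares), on a log2 axis with bars for the standard error. In DMSO 25 of the 29 circles lie right of 0, led by HSP82 and HSP78, and CDC37 lies farthest left.

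All 12 called genes other than PUS1 were also called, with the same sign, between the 2 strains in the aTC libraries. That contrast shares no library with the DMSO contrast, although the strains are the same and its deletion cells express the induced construct. Both contrasts came from the same fit of all 8 libraries, so their tests share each gene's estimate of spread and their calls are not independent. The aTC contrast called 808 genes (13.6%), 326 higher (5.5%) and 482 lower (8.13%). Of these, 807 were beside PUS1, so the 12 are 1.49% of its calls and 100% of the DMSO calls. HSP78 had a log2 of 0.77 in aTC, SSA1 0.47 and HSP82 0.56. Over all 29 Hsf1 chaperone genes the aTC median was 0.11, with 7 called higher and 2 called lower. CHA1 had -0.67, GPX2 -0.49 and HPF1 -0.40. ALD4 had 0.46, MCR1 0.39, TPO4 0.37 and YPS6 0.63. ZRT1 at -0.25 and YOR338W at 0.42 had smaller values in aTC than in DMSO, with unadjusted interaction p-values of 0.00489 and 0.00591, and neither passed adjustment.

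The test of the difference between the contrasts called 1 gene (0.0169%), PUS1. Beside it 0 genes passed in edgeR, where the smallest adjusted p was 0.66, and 0 in DESeq2, while 429 genes (7.23%) had an unadjusted p under 0.05. That count of 1 rises to 175 without wild-type aTC replicate 2. Across the 5931 genes other than PUS1, log2 fold changes of the 2 contrasts correlated at Pearson r = 0.44, and 4241 had the same sign. These are descriptions over genes, which are not independent replicates. The aTC count of 808 was itself 3 without deletion aTC replicate 1, 63 without wild-type aTC replicate 1 and 1408 without wild-type aTC replicate 2.

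**Figure D3:**
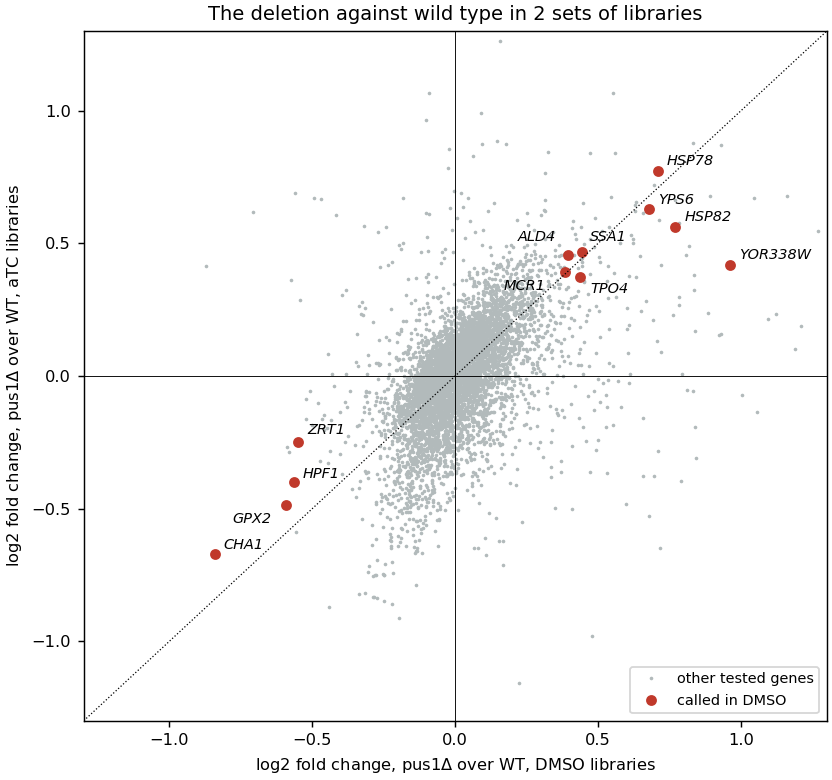
Log2 fold change of deletion over wild type in the DMSO libraries (horizontal) against the same in the aTC libraries (vertical), a point per tested gene with PUS1 and 10 genes beyond the axes left out, and a dotted line of equal values. The 12 called genes (red, named) lie in the quadrants of like sign.

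The genes that act closest to Pus1 showed no called difference in DMSO. Of the 8 other stand-alone pseudouridine synthases, 0 were called by edgeR and 0 by DESeq2, and 0 had an unadjusted p under 0.05. PUS2, the closest relative of PUS1, which modifies mitochondrial tRNA, had 22.5 and 25.2 CPM in the deletion and 22.4 and 22.6 CPM in wild type (log2 0.09, SE 0.0860). PUS7, which modifies tRNA, U2 snRNA and mRNA, had 238 and 236 CPM in the deletion and 264 and 245 CPM in wild type (log2 -0.10, SE 0.0667). DEG1 and PUS4, both pseudouridine synthases of tRNA, were at -0.10 as well. Of the 8 genes, 6 lay below 0 in DMSO and 2 above. In aTC PUS4 was called lower in the deletion (log2 -0.24, edgeR adjusted p = 0.0417), the only call among the 8. PUS5 (0.11), PUS6 (-0.04), PUS9 (-0.05) and RIB2 (-0.01) lay on both sides of 0, and PUS5, PUS6 and RIB2 changed sign when single libraries were left out.

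Among 55 tRNA modification genes 0 were called either way by edgeR, and the median log2 was -0.05. At an unadjusted p under 0.05, 1 was higher and 5 lower, where 8.85% of all genes were higher and 7.67% lower. DESeq2 called 1 higher and 1 lower, and the fit of the 4 DMSO libraries 1 higher and 3 lower. The list leaned to the lower side, with 45 of 55 below 0 and 16 above the median of their own expression decile. In aTC 10 of the 55 were called lower and 0 higher, where 8.13% of all genes were called lower. The gene with the smallest p was ABP140, also named TRM140, which encodes a tRNA methyltransferase. It had 220.1 and 212 CPM in the deletion and 268 and 274 CPM in wild type, without overlap, and lay just outside the threshold (log2 -0.33, SE 0.0588, edgeR adjusted p = 0.0501). In aTC it was called (log2 -0.54, adjusted p = 0.00662). The 13 U2 snRNP genes had a median of -0.02. The intron list, ribosomal protein genes apart, had a median of -0.01 over 170 genes, and edgeR called 0 in either list. This intron list took every gene whose R64 coding region is annotated in more than 1 segment. It therefore also holds genes split by a frameshift and not by an intron, ABP140 among them. At an unadjusted p under 0.05 they held 1 and 18 genes in all: 1 higher for U2, and 7 higher and 11 lower for the intron list. Over all tested genes 16.5% passed that threshold, 8.85% higher and 7.67% lower, so the intron list held no excess. DESeq2 called 0 of the U2 genes, and 1 higher and 5 lower of the intron list, with ABP140 among the 5. The annotation counts each gene as 1 exon, so retained introns are not separated from spliced RNA.

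At and around the edited loci the edgeR fit of all libraries called PUS1 alone among the genes examined in DMSO. DESeq2 and the fit of the 4 DMSO libraries also called RNR2. NIP7 and LEA1, on either side of PUS1, had log2 values of 0.14 (SE 0.0648) and -0.07 (SE 0.0845), not called by any of the 3 fits. In aTC NIP7 was called higher in the deletion (log2 0.23, edgeR adjusted p = 0.0387), and LEA1 was not called. The 24 tested genes within 20 kb of PUS1 had a median of 0.04 and ran from -0.20 to 0.53. The 19 within 20 kb of HIS3 had a median of 0.01 and ran from -3.23 to 0.48, and the 18 within 20 kb of URA3 had a median of 0.05 and ran from -0.15 to 0.23. The value of -3.23 belongs to YOR203W, with 0 reads in each deletion library and 0 and 2 in wild type, where a fitted fold depends on the prior count. HIS3 had 0 reads in all 4 DMSO libraries and was not tested. URA3 had 5.01 and 4.78 CPM in the deletion and 4.66 and 5.25 CPM in wild type. TUP1, whose coding sequence is also part of the repressor at ura3, had 772 and 813 CPM in the deletion and 904 and 841 CPM in wild type (log2 -0.14, SE 0.0609, adjusted p = 0.286). RNR2, whose promoter drives that repressor, had 265 and 261 CPM in the deletion and 312 and 318 CPM in wild type, without overlap (log2 -0.26, SE 0.0501, edgeR adjusted p = 0.0583). It was called lower by DESeq2 (adjusted p = 0.00123) and by the edgeR fit of the 4 DMSO libraries (adjusted p = 0.0210). RNR2 overlaps another listed gene. Chromosome medians ran from -0.02 to 0.02, so no whole chromosome stood apart.

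Small differences below the threshold ran along with expression level. The 593 most abundant tested genes (median 619 CPM) had a median log2 fold change of -0.09, and the 594 least abundant (median 0.999 CPM) one of 0.16, with the deciles between in order. Across genes the Spearman correlation of log2 fold change with mean CPM was -0.46, and with gene length -0.11. Both deletion DMSO libraries showed this slope, and so did both deletion aTC libraries, whereas the inducer's own effect in wild type ranged from -0.02 to 0.03 over the deciles. Its part in the list values below was not tested, and the count of members above the median of their own decile is given beside the lists below. For the list counts below, the shares over all tested genes in DMSO at an unadjusted p under 0.05 were 8.85% higher and 7.67% lower. In aTC 5.5% of all genes were called higher and 8.13% lower.

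**Figure D4:**
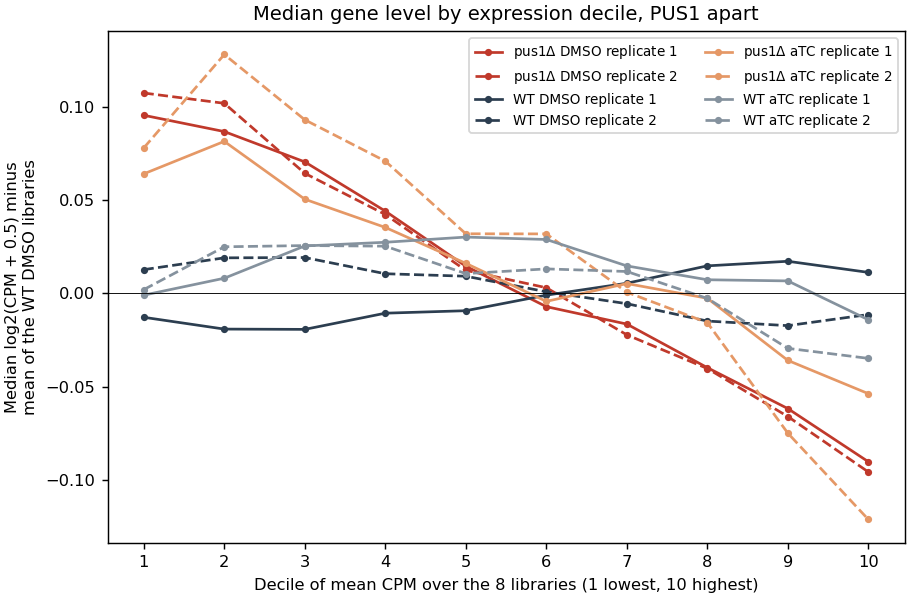
Median level of genes in each decile of mean expression, for each of the 8 libraries, as log2(CPM + 0.5) minus the mean of the 2 wild-type DMSO libraries. Both deletion DMSO lines (red) run down from above 0 at low expression to below 0 at high expression.

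Genes for making ribosomes and proteins lay on the lower side, with 0 called by edgeR in either direction. Of 67 genes of large subunit assembly 66 had a log2 fold change below 0, with a median of -0.17, and 18 were lower and 0 higher at an unadjusted p under 0.05. The fit of the 4 DMSO libraries called 17 lower and DESeq2 called 1. Only 6 of the 67 lay above their own decile's median. NSA1, a factor of early pre-60S particles, had 138 and 132 CPM in the deletion and 169.6 and 157 CPM in wild type (log2 -0.27, SE 0.0750, edgeR adjusted p = 0.150). ERB1, of the same pathway, had 315 and 316 CPM in the deletion and 397 and 353 CPM in wild type, so its groups did not overlap, but its wild-type libraries differed more from each other than its deletion libraries did.

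The 63 genes of the small subunit processome, the complex that builds the precursor of the 40S subunit, had a median of -0.14, with 13 lower and 0 higher at an unadjusted p under 0.05. In this list the edgeR fit of all libraries and DESeq2 called 0, and the fit of the 4 DMSO libraries called 9 lower. Of the 63, 7 lay above their decile's median. The 33 translation factors had a median of -0.14, with 10 lower and 0 higher at an unadjusted p under 0.05 and 2 called lower by DESeq2, and 4 lay above their decile's median. GCD6, the catalytic subunit of eIF2B, had 188 and 189 CPM in the deletion and 229.8 and 218 CPM in wild type (log2 -0.24, SE 0.0590, edgeR adjusted p = 0.121). Ribosomal protein genes differed less from genes of their own level. The 81 of the large subunit had a median of -0.09 and the 56 of the small subunit -0.07, and 39 and 34 of them lay above their decile's median. At an unadjusted p under 0.05 the large subunit genes were 5 higher and 21 lower and the small subunit genes 0 higher and 10 lower. DESeq2 called 1 higher and 1 lower in the first list and 2 lower in the second. In the aTC libraries the assembly list had a median of -0.36 with 43 called lower, and the processome list -0.30 with 35 called lower. Wild-type libraries also differed in these lists. Assembly genes summed to 19767 and 16628 CPM in wild type with aTC, and to 19197.5 and 17681 CPM with DMSO. The deletion with DMSO had 16395 and 16572 CPM. Processome genes summed to 15176.5 and 13146 CPM in wild type with aTC, and to 15101 and 13675 CPM with DMSO. The deletion with DMSO had 13020 and 13152 CPM. In both lists wild-type aTC replicate 2 lay near the deletion DMSO libraries.

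Several biosynthetic lists had the same sign. All 22 cytosolic aminoacyl-tRNA synthetase genes, whose products charge tRNAs, were below 0 (median -0.11; 10 lower at an unadjusted p under 0.05; 0 called by edgeR, 1 lower by DESeq2). The median gene of this list was in the top expression decile, and 9 of the 22 lay above their decile's median. All 19 purine and one-carbon genes were below 0 as well (median -0.13; 8 lower; 0 called by edgeR, 2 lower by DESeq2), and 4 lay above their decile's median. ADE12, which makes adenylosuccinate, had 246 and 243 CPM in the deletion and 287 and 294 CPM in wild type (log2 -0.25, edgeR adjusted p = 0.0669).

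Genes of amino acid synthesis under Gcn4, the activator of the general amino acid response, had a median of -0.11 over 41 genes, with 17 lower and 0 higher at an unadjusted p under 0.05 and 0 called by edgeR. DESeq2 called 5 lower, and 15 of the 41 lay above their decile's median. HOM6, which makes homoserine, had 454 and 451 CPM in the deletion and 534 and 543 CPM in wild type (log2 -0.25, SE 0.0502, adjusted p = 0.0669). Arginine synthesis genes formed a separate list of 9, with a median of -0.14 in DMSO and 0.03 in aTC. In DMSO edgeR called 0 of them, and 4 lay above their decile's median. ARG3, of that list, had 106 and 111 CPM in the deletion and 147 and 152 CPM in wild type, without overlap (log2 -0.47, SE 0.101, adjusted p = 0.0897). In aTC the Gcn4 list was centred near 0 (median -0.01, 2 called lower) and ARG3 was at -0.16. The median of the interaction over the Gcn4 list was 0.10, with 2 of 41 genes at an unadjusted interaction p under 0.05.

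Glycolysis and fermentation genes had a median of -0.13 over 23 genes, with 1 higher and 8 lower at an unadjusted p under 0.05, 0 called by edgeR and 5 lower by DESeq2, and 6 lay above their decile's median. TDH2, a glyceraldehyde-3-phosphate dehydrogenase, had 3102 and 3039 CPM in the deletion and 3745 and 4003 CPM in wild type (log2 -0.34, SE 0.0602, edgeR adjusted p = 0.0501). TDH2 shares most of its sequence with TDH3, so its level is uncertain. PYK2, the pyruvate kinase that glucose represses, was on the other side at 0.26.

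Genes that glucose represses, and reserve carbohydrate and stress genes, lay on the higher side by their medians. Of 27 genes of glucose-repressed carbon use 1 was called higher, ALD4, and the median was 0.21, with 11 higher and 1 lower at an unadjusted p under 0.05 and 2 higher and 1 lower by DESeq2. ADR1, an activator of such genes, had 15.8 and 15.7 CPM in the deletion and 11.6 and 12.9 CPM in wild type (log2 0.36, SE 0.0894, edgeR adjusted p = 0.129). ALD6, the cytosolic aldehyde dehydrogenase, was the lower gene at -0.24. The summed level of this list lay on the other side, at 2311 and 2355 CPM in the deletion and 2657 and 2612 CPM in wild type. ALD6 alone held 1833 and 1875 CPM in the deletion and 2228 and 2164 CPM in wild type. The sum thus mostly follows ALD6, which was abundant in this glucose medium, and not the other members. Of 18 glycogen and trehalose genes 0 were called by edgeR and 1 higher by DESeq2, the median was 0.18, and 10 were higher and 0 lower at an unadjusted p under 0.05. GSY2, the main glycogen synthase, had 20.2 and 19.2 CPM in the deletion and 14.7 and 16.3 CPM in wild type (log2 0.35, SE 0.0805, adjusted p = 0.109).

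The 41 general stress genes had a median of 0.16, with 14 higher and 1 lower at an unadjusted p under 0.05, 0 called by edgeR and 2 higher by DESeq2. By the median they were weakly expressed, in the second decile, whose own median was 0.10. Of the 41, 29 lay above their own decile's median, as did 16 of 18 glycogen and trehalose genes and 18 of 27 glucose-repressed genes. Summed levels were 1086 and 1085 CPM in the deletion and 1015 and 1067 CPM in wild type for glycogen and trehalose genes, and 1361 and 1323 CPM in the deletion and 1226 and 1311 CPM in wild type for general stress genes. In aTC the 3 lists had medians of 0.22 for general stress, 0.27 for glycogen and trehalose and 0.22 for glucose-repressed genes, with 9, 11 and 8 genes called higher and 0 lower.

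Nuclear genes for mitochondrial translation and respiration lay slightly on the higher side by their medians. All 14 mitochondrial aminoacyl-tRNA synthetase genes were above 0 (median 0.13; 6 higher at an unadjusted p under 0.05; 0 called by edgeR or DESeq2), and 12 lay above their decile's median. NAM2, the mitochondrial leucyl-tRNA synthetase, had 129.9 and 128 CPM in the deletion and 111 and 111 CPM in wild type (log2 0.22, SE 0.0553, edgeR adjusted p = 0.132). The 35 respiratory chain and ATP synthase genes had a median of 0.10 with 8 higher and 0 lower, and 33 lay above their decile's median. Their summed levels were 13112 and 13063 CPM in the deletion and 12128 and 12905 CPM in wild type. QCR9, a subunit of complex III, had 105 and 107 CPM in the deletion and 76.3 and 92.6 CPM in wild type (log2 0.33, SE 0.0842, adjusted p = 0.132). The 75 genes of the mitochondrial ribosome had a median of 0.08 with 9 higher and 0 lower in DMSO, where 8.85% of all genes were higher. Of the 75, 60 lay above their decile's median. They summed to 5029 and 4723 CPM in the deletion and 4561 and 4742 CPM in wild type, so the groups overlapped. In aTC their median was -0.08 with 5 called lower, where 8.13% of all genes were called lower, so the calls held no excess. An unadjusted interaction p under 0.05 was found for 23 of 75, against 7.23% of all genes. In the respiratory and mitochondrial ribosome lists 0 genes were called by edgeR and 1 each, higher, by DESeq2.

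**Figure D5:**
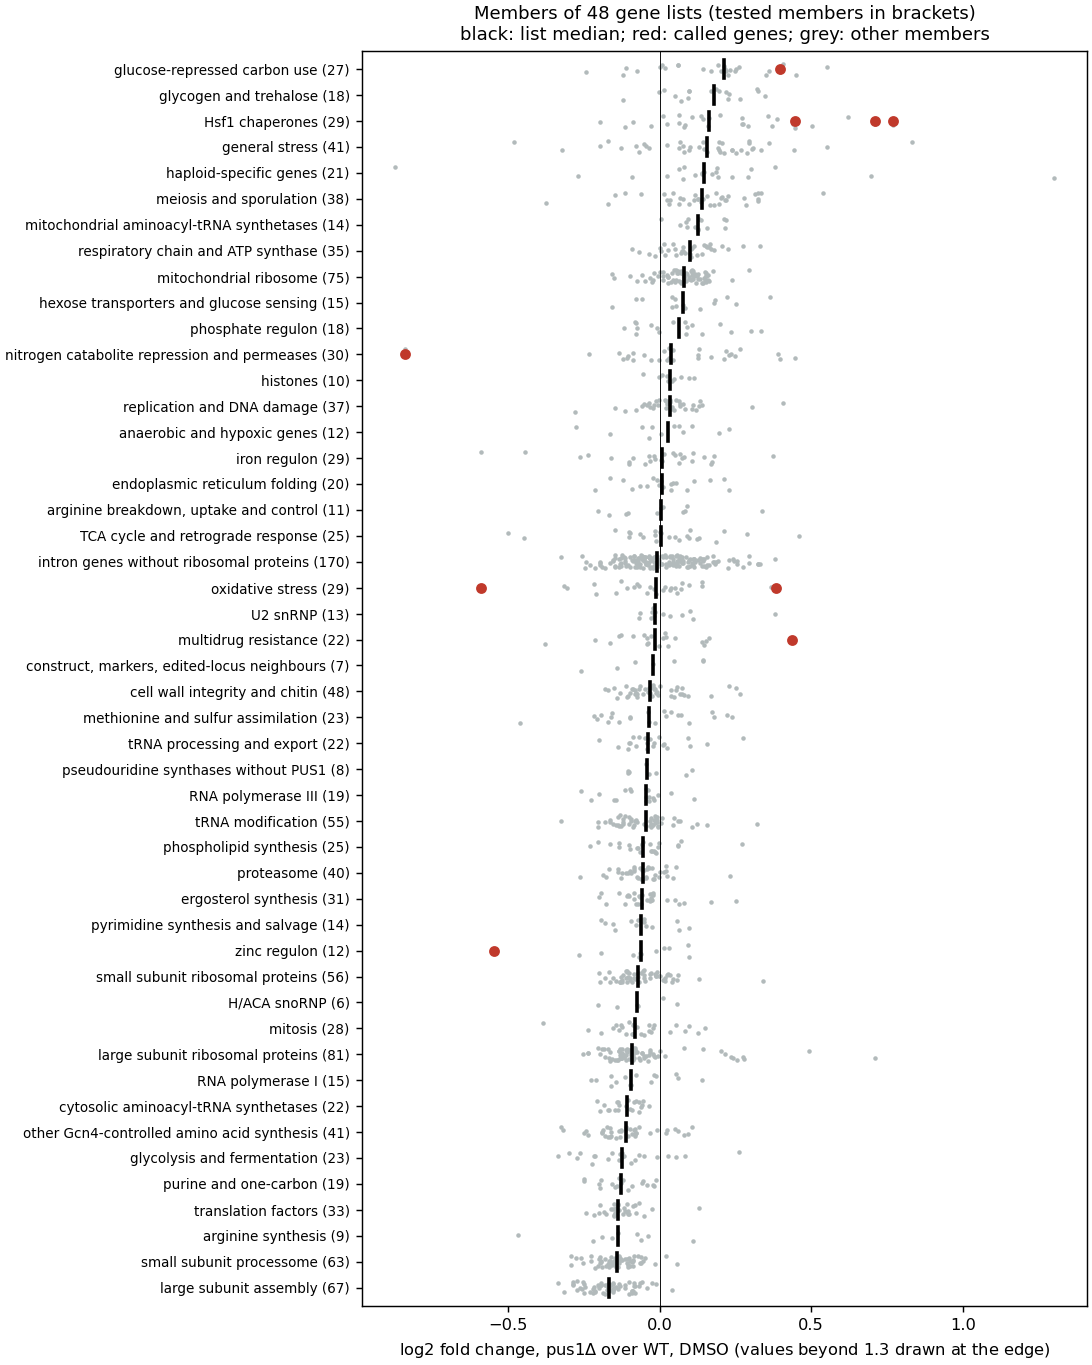
Log2 fold change of deletion over wild type in DMSO for every tested member of 48 gene lists, ordered by list median (black), with called genes in red and values beyond 1.3 at the edge. Glucose-repressed, glycogen and trehalose and chaperone genes lie highest, and the assembly lists of both ribosomal subunits lowest.

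Cell identity was checked on genes that a MATa/alpha diploid in growth should hold low. The 21 haploid-specific genes summed to 218 and 226 CPM in the deletion and 211 and 198 CPM in wild type. Single genes of the list ran from a log2 of -0.87 for MF(ALPHA)1 to 1.60 for STE3, both on few reads. The receptor gene STE3 had 26 and 20 reads in the deletion and 11 and 3 in wild type, so that 1 wild-type library was at the 3 reads that a count of 0 leaves room for. The 38 meiosis and sporulation genes summed to 383 and 404 CPM in the deletion and 384 and 367 CPM in wild type. Of the haploid list 4 were higher and 0 lower at an unadjusted p under 0.05, and of the meiotic list 8 higher and 1 lower, with 0 called by edgeR or DESeq2 in either. Both lists were weakly expressed, in the second decile by the median, and 15 of the 21 haploid-specific and 22 of the 38 meiotic genes lay above their decile's median.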

How the data were processed

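Polyadenylated RNA of 8 cultures was sequenced, 4 of which enter the comparison. The kit was directional, per the labels. Reads were aligned with STAR (version not given in the sources used here), per the submitters' processing notes. Per the file headers, the authors deposited raw counts from featureCounts 2.0.1, with exon counting of uniquely aligned reads with no strand option. Reads of overlapping genes (1464 of 6663, 22.0%) and of near-identical copies are therefore uncertain. The genome build is not given in the sources used here. Symbols came from the RefSeq table of S288C R64 (5931 matched, 732 not).

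Counts were tested in R 4.3.3 with edgeR 4.0.16 (TMM, quasi-likelihood test) fitted to all 8 libraries, a mean for each group and no block, which leaves 4 residual degrees of freedom. The filterByExpr function left 5932 genes and dropped 731. The biological coefficient of variation was 5.44%. Standard errors were derived from the log2 fold change and its F statistic. The fit was tested on simulated data. DESeq2 1.42.0, other filters, the 4 libraries alone and libraries left out were alternatives. Intervals cover counting error only, since reads carry no molecular identifiers.

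Members and lists were chosen with earlier results of these data known. Named genes were called genes with a standard symbol and non-overlapping groups, up to 15 each way, made up to 15 by smallest p, plus PUS1, its neighbours, the other pseudouridine synthases, HIS3, URA3, TUP1 and RNR2. YOR338W came in by its p, and other list members were named after their values were seen. Named genes that did not pass and are not in the report are given in the closing section. The deviations of same-numbered replicates correlated at -0.16 between the DMSO groups and at -0.16 to 0.14 over the pairs of all 4 groups, so the numbers were not used as pairs.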

Additional observations from a re-analysis of the deposited data

Results flagged for a closer look

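The effect of genotype on PUS1 differed between the aTC and DMSO libraries: the interaction was 11.56 on the log2 scale (edgeR adjusted p = 3.19e-11). PUS1 is the gene deleted and supplied by the construct, and its fitted value in the DMSO deletion, which had 2 and 4 reads, depends on the prior count.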

How the results depend on the processing

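The count of 13 called genes in DMSO became 21 with DESeq2 size factors in edgeR, 113 with the DESeq2 Wald test, 29 with no filter on low counts, 261 with the 4 libraries of the contrast alone and 29 without overlapping genes, and 14 with a mean of at least 10 CPM. With the replicate number as a block it was 28, and with the deletion numbers crossed, a pairing added after seeing the data because same-numbered deviations correlated at -0.16, it was 21. In each of these fits every one of the 13 genes that was tested remained called. Leaving out 1 library gave 1 to 106 called genes in DMSO, 3 to 1408 in aTC and 1 to 175 in the interaction. Of the 13, 2 stayed called without deletion replicate 1, 1 without deletion replicate 2, 4 without wild-type replicate 1 and 10 without wild-type replicate 2. In these fits a lone library is assumed to vary like the other groups. The aTC count of 808 became 369 with its 4 libraries alone. Leaving out 1 library also changed the sign of 4 of the 42 named genes tested, none of them called by edgeR or DESeq2, whose log2 values ran from -0.0537 to 0.291 for PUS5, -0.0744 to 0.00514 for PUS6, -0.0291 to 0.00649 for RIB2 and -0.107 to 0.0699 for URA3. With 2 libraries a group and a coefficient of variation of 5.44%, differences near the median size of 0.0865 (log2) are below what the test calls.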

Other observations

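Other genes lay next to the threshold. NCE103, the carbonic anhydrase, had 109 and 101 CPM in the deletion and 57.5 and 62.1 CPM in wild type, without overlap (log2 0.81, SE 0.145, edgeR adjusted p = 0.0501). In aTC its deletion libraries had 102 and 69.6 CPM and its wild-type libraries 56.7 and 68.4 CPM, so that the lower deletion library lay close to wild type. MBF1, a coactivator of Gcn4, had 669 and 653 CPM in the deletion and 496 and 539 CPM in wild type (log2 0.35, adjusted p = 0.0501). YPK2, a kinase of the TORC2 pathway, was at 0.38 and KNH1, of cell wall glucan synthesis, at 0.63, both with an adjusted p of 0.0501. FIG1, a mating gene, had 3.67 and 2.57 CPM in the deletion and 1.35 and 1.49 CPM in wild type (log2 1.12, adjusted p = 0.0508), against 0.24 in aTC. MIG2, a repressor of glucose-repressed genes, was at 0.36 in DMSO and 0.04 in aTC. On the lower side YLR198C, which overlaps another gene, was at -0.44, CSS2 at -0.30, VMA13 of the vacuolar ATPase at -0.27 and the aminopeptidase gene AAP1 at -0.26. These 4 were not called by the edgeR fit of all libraries, while DESeq2 and the fit of the 4 DMSO libraries called all 4 lower.

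A list of 30 genes of nitrogen catabolite repression and permeases also held CHA1, the deaminase described above, which was its 1 called gene. That call concerns CHA1 and is not a result about nitrogen catabolite repression. At an unadjusted p under 0.05, 8 of the list were higher and 2 lower, CHA1 among the 2. DAL2 and DAL1, of allantoin breakdown, had log2 values of 0.45 and 0.40. DAL2 had 11.3 and 12.3 CPM in the deletion and 8.86 and 8.48 CPM in wild type. In the zinc list of 12 genes ZRT1 was called lower, and the vacuolar transporter ZRC1 and the low-affinity transporter ZRT2 were at -0.27 and -0.19 in DMSO and -0.13 and -0.06 in aTC. The edgeR fit of all libraries called neither, DESeq2 called ZRC1 lower and the fit of the 4 DMSO libraries called both lower. In the oxidative stress list of 29 genes GPX2 was called lower and MCR1 higher. CCS1, the copper chaperone of superoxide dismutase, had 110.3 and 105 CPM in the deletion and 133 and 133 CPM in wild type (log2 -0.31, edgeR adjusted p = 0.0968), and was called lower in aTC (log2 -0.38, adjusted p = 0.0152). The peroxiredoxins AHP1 and TSA1 were at 0.38 and -0.21, not called by the edgeR fit of all libraries but called by DESeq2 and by the fit of the 4 DMSO libraries. In the whole oxidative stress list DESeq2 called 2 higher and 4 lower, as did the fit of the 4 DMSO libraries.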
